A study of Rattus norvegicus with 7 samples.

Results

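A window of chromosome 2 in the rat genome, from 185000000 to 187000000 in build RGSC3.4, was examined in the vomeronasal epithelium. Its members are the 48 gene models on chromosome 2 whose lowest start lies in that window, of 29630 models in the annotation. RNA came from 7 male LEW/Crl rats aged 8 weeks, with 1 library per rat, and all rats formed one group without a treatment. The vomeronasal organ is a chemosensory organ of the nasal cavity, LEW/Crl is an inbred Lewis strain, and per the labels' protocols the animals were flushed of blood before dissection. Single-cell reads that the study's design mentions were not analysed here.

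The window carries the name of the epidermal differentiation complex, a dense cluster of genes that mammals use when squamous epithelium cornifies. Late cornified envelope and small proline-rich proteins, loricrin and involucrin are cross-linked under the membrane of the dying keratinocyte, filaggrin-like proteins bundle keratin filaments, and S100 proteins are small calcium-binding proteins, some of which are made in many tissues. The RefSeq gene table for assembly GRCr8 lists 47 protein-coding genes of these families (13 S100a, 12 Lce, 10 Sprr, 6 filaggrin-like, 4 other envelope or neighbouring genes and 2 peptidoglycan recognition proteins). All 47 stand on chromosome 2, within a stretch of 71 protein-coding genes. The counted files give Ensembl identifiers without names, and 0 of the 48 members could be matched to this table or to its promoter sequences. Whether the window holds that cluster in RGSC3.4 was therefore not checked, the members are described by position, and no sequence is shown.

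Members were separated by their counts, so that the classes below are a description and carry no test. A member was called expressed in all rats when it had at least 10 counts in each of the 7 rats. It was called high in only one rat when its highest rat had at least 10 counts and a level, in assigned counts scaled to CPM (the usual scaling of each library to the same total), at least 3 times that of the next highest rat, and such a member was kept out of the first class. Of the 48 members, 3 were expressed in all rats and 12 were high in only one rat, and that rat was rat 1 for all 12. Another 20 members had some counts but fewer than 10 in every rat, and 13 had none. Over all 29630 models, 53.8% were expressed in all rats, against 6.25% of the members. Among models with at least 10 counts in some rat this share was 90.5%, against 3 of 15 members. Only 0.709% of all models were high in only one rat and 0.53% were so in rat 1, against 25% of the members. The window was chosen by these same values, so that the difference carries no test.

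The libraries held 64085829 to 74924005 counts, and rat 1 had the lowest total. Rat 1 also stood apart from the others across the whole annotation: its mean Pearson correlation with the other 6 rats in log2(CPM + 1), taken across models, was 0.993, against 0.996 to 0.997 for each of the rest. Mitochondrial models took 2.16% of its counts, within the range of 1.83% to 2.44% in rats 2 to 7. The 5 intact V1R models that the authors named, receptors of vomeronasal sensory neurons, summed to 14.1 CPM in rat 1, with a range of 11.7 to 20.1 CPM among rats 2 to 7. Other markers of the tissue need gene symbols and were not looked up. What part these library differences have in the levels below was not tested, and in whole tissue a change in the number of cells of a type and in the RNA per cell cannot be told apart.

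**Figure D1:**
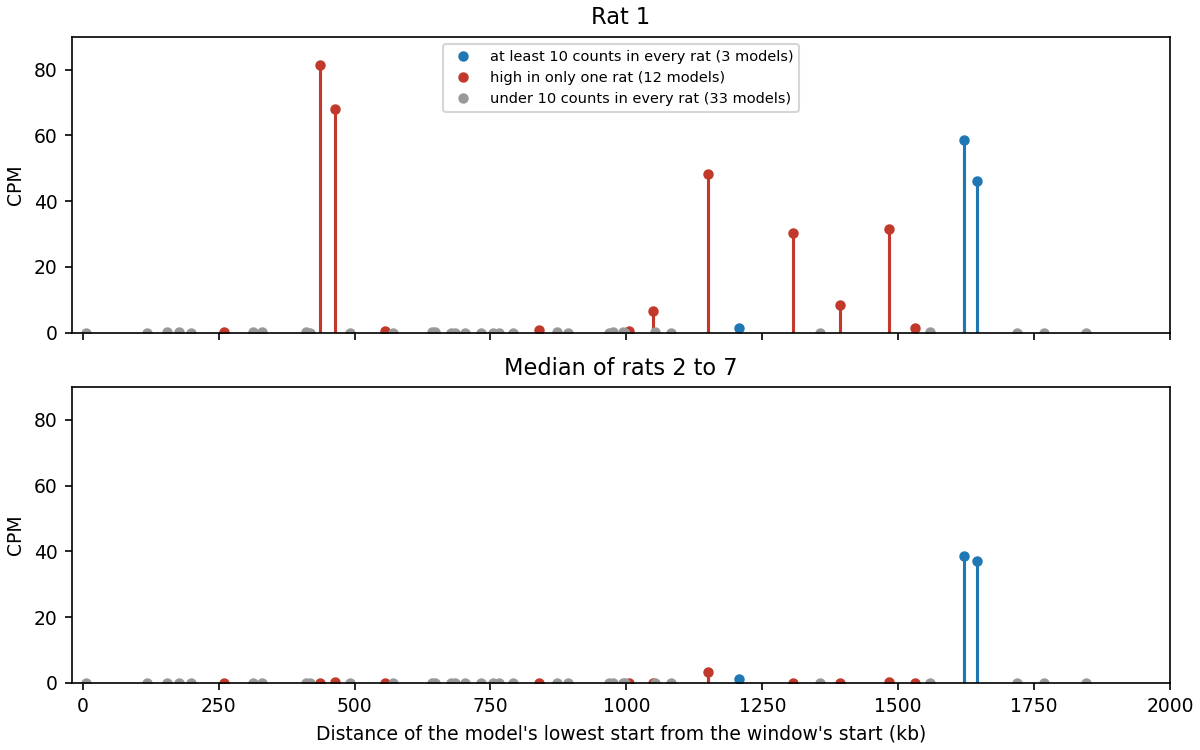
Level of each of the 48 members along the window, in rat 1 (top) and as the median of rats 2 to 7 (bottom). The horizontal axis is the distance of a model's lowest start from the start of the window in kb, and the vertical axis is CPM on a linear scale from 0. In rat 1, 7 red models reach 6.54 CPM or more, and in the other rats only the 2 rightmost blue models do.

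The most abundant members in the tissue as a whole were a pair of short spliced models near the right end of the window. ENSRNOG00000010105 (186620360–186621911, plus strand, 2 exons, 297 exon bases) had 58.6 CPM in rat 1, 38.8 in rat 2, 38.2 in rat 3, 37.7 in rat 4, 37.2 in rat 5, 45.0 in rat 6 and 45.1 in rat 7. Rat 1 was the highest, rats 6 and 7 followed, and the other 4 lay close together. Its mean was 42.9 ± 7.68 CPM (SD, n = 7), or 40.3 ± 3.70 (SD, n = 6) without rat 1. Per 1000 exon bases (RPKM), this was 145 ± 25.9 (SD, n = 7), the highest mean level of any member. It ranked 206th of all models by RPKM in rat 1 and between 280th and 343rd in the other rats.

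ENSRNOG00000023226 (186645648–186654321, plus strand, 3 exons, 599 exon bases) followed, 23.7 kb to its right. It had 46.0 CPM in rat 1, 36.9 in rat 2, 38.0 in rat 3, 37.3 in rat 4, 34.8 in rat 5, 41.0 in rat 6 and 35.7 in rat 7. Rat 1 was again the highest, but its lead over rat 6 was small, at 1.12-fold. The mean was 38.5 ± 3.83 CPM, or 64.3 ± 6.39 RPKM (SD, n = 7), and its coefficient of variation (CV) of 9.94% was the lowest among the members expressed in all rats. The median CV of all models of that class was 9.56%. Counts of both were fractional in some rats, which marks multimapping reads; near-identical copies may share them, and the exact levels are uncertain.

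The remaining member of this class lay in the middle of the window and was of another kind, a long model of 23 exons and 8589 exon bases (186206294–186219364, plus strand). Its counts were 91.3 in rat 1, 52.5 in rat 2, 121 in rat 3, 87.8 in rat 4, 54.8 in rat 5, 69.5 in rat 6 and 105 in rat 7. In CPM, rats 7 and 3 were the highest and rat 1 came after them, so that it did not follow the order of the pair. At 1.21 ± 0.38 CPM and 0.141 ± 0.044 RPKM (SD, n = 7) it was low, ranking between 16742nd and 17973rd of all models by RPKM. Its CV of 31.3% was the highest of the class, and the highest rat had 2.32 times the level of the lowest. Fractional counts occurred here as well.

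**Figure D2:**
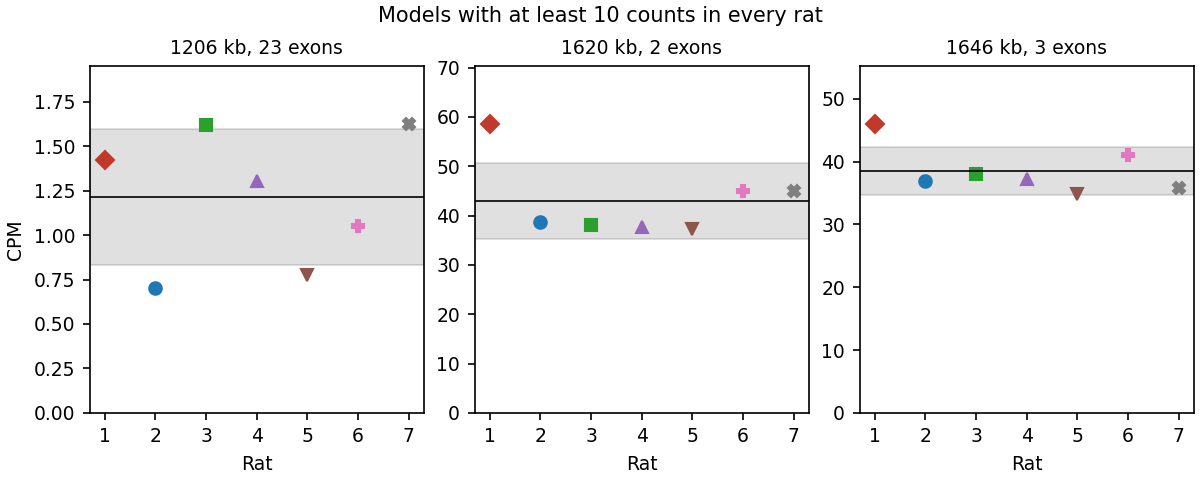
CPM in each of the 7 rats for the 3 members expressed in all rats, titled by distance from the window's start and exon number. Symbols are single rats, the line is the mean and the grey band is the mean ± 1 SD (n = 7); each vertical axis starts at 0. Rat 1 lies above the band for the 2 abundant models and inside it for the model of 23 exons.

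Summed, these 3 members gave 106 CPM in rat 1 and 72.8 to 87.1 CPM in rats 2 to 7. The mean over rats was 82.7 ± 11.3 CPM (SD, n = 7), and without rat 1 it was 78.8 ± 5.13 (SD, n = 6). Rat 1 was thus 1.37 times the median of the others.

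The 12 members high in only one rat behaved otherwise. Together they had 277 CPM in rat 1 (17759 counts), with 3.14 to 4.74 CPM in rats 2 to 7 (221 to 307 counts), a level 73.9 times the median of the other rats. The rule itself sets rat 1 apart from the others in each of the 12. Rats 2 to 7 had 3.83 ± 0.53 CPM (SD, n = 6), most of it from a single model, 186149368–186151679. Without that model the other 11 summed to 229 CPM in rat 1 and 0.216 to 0.681 CPM in rats 2 to 7, a level 537 times their median, and the CV among rats 2 to 7 was 40.4% in place of 13.8%. Restricted to the 15 members with at least 10 counts in some rat, 12 (80.0%) were high in only one rat, against 1.19% of all models that reached 10 counts in some rat and 0.891% for rat 1.

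The largest signal came from ENSRNOG00000024046, a model of 1 exon and 759 bases on the minus strand (185436598–185437356). It had 5209 counts in rat 1, 4 in rat 2, 2 in rat 3 and 0 in each of the other 4 rats. Its counts were whole in every rat, so that they show no shared reads, although fractions of several multimapping reads can sum to a whole number. At 81.3 CPM in rat 1 it was 1522 times the next highest rat, and by RPKM (107) it ranked 399th of all models there. In rats 4 to 7 a count of 0 allows up to 3 counts, or 0.0426 to 0.0463 CPM.

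Its neighbour ENSRNOG00000024028 (185464227–185465857, minus strand, 4 exons, 526 exon bases) followed it closely. Counts were 4350 in rat 1, 9 in rat 2, 10 in rat 3, 7 in rat 4, 13 in rat 5, 1 in rat 6 and 5 in rat 7. Rat 1 stood at 67.9 CPM, 368 times rat 5, the next highest. With 129 RPKM in rat 1 it was the member with the highest level per length of this class, ranking 332nd of all models, between the levels of the abundant pair at the right end (197 and 76.8 RPKM in rat 1). This pair at the left held 53.8% of the summed rat 1 signal of the 12 members.

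Model 186149368–186151679 (plus strand, 3 exons, 1455 exon bases) was the only one of the 12 with at least 10 counts in every rat. Its counts were 3100 in rat 1, 225 in rat 2, 232 in rat 3, 235 in rat 4, 206 in rat 5, 229 in rat 6 and 289 in rat 7. Rats 2 to 7 formed a narrow group of 3.41 ± 0.57 CPM (SD, n = 6), and rat 1 at 48.4 CPM was 10.8 times the highest of them. It ranked 1615th by RPKM in rat 1 and between 11581st and 12549th in the others. In rats 2 to 7 this model held 81.5% to 94.1% of the counts of the class, and the other 11 together had 15.25 to 51 counts per rat there.

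Further right, 3 spliced models shared the pattern. The model at 186483053–186487110 (7 exons, 3351 exon bases) had 2014 counts in rat 1, 14 in rat 2, 13 in rat 3, 5 in rat 4, 0 in rat 5, 10 in rat 6 and 1 in rat 7. That was 31.4 CPM in rat 1 and 168 times rat 2. The model at 186307359–186311549 (10 exons, 3076 exon bases) had 1933 counts in rat 1, 9 in rat 2, 4 in rat 3, 6 in rat 4, 0 in rat 5, 5 in rat 6 and 6 in rat 7, that is 30.2 CPM in rat 1 and 251 times rat 2. For both, rat 5 had no count, and the remaining rats had at most 14 counts. The short model between them, at 186393623–186395276 (2 exons, 453 exon bases), had 539 counts in rat 1, 1 each in rats 2 and 6 and 0 in the other 4. Its ratio of 557 to rat 6 rests on that single count (exact 95% interval 99.6 to 22051). These intervals cover counting error only and not the spread between rats, since each compares single libraries picked by their values. The reads carry no molecular identifiers, so that duplicate reads could make the intervals too narrow.

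A model of 2 exons on the minus strand at 186049349–186051084 had 419 counts in rat 1, 3 in rat 2, 1 each in rats 3, 4 and 5 and 0 in rats 6 and 7. At 6.54 CPM in rat 1 it was 163 times rat 2 (exact 95% interval 55.5 to 795). A minus-strand model just to its right, at 186053050–186054252, had only 3 counts in rat 1 and 0 elsewhere.

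The 5 weakest of the 12 had 10 to 81 counts in rat 1, and those with 27.5 counts or fewer were the nearest to the minimum of 10. The model of 8 exons at 186530367–186533876 had 81 counts in rat 1 and 1 to 13 in each of the others, 6.55 times rat 4, the smallest ratio in the class. The models at 185839396–185843694 and 185556271–185558310 (2 exons each) had 55 and 27.5 counts in rat 1 and at most 2 and 1 in any other rat, with ratios of 27.8 (exact 95% interval 7.34 to 235) and 28.9 (4.87 to 1204). The model at 186005183–186006258 had 21.75 counts in rat 1 and 0.25 in rat 5, the remaining rats being at 0, so that its level was at least 7.97-fold higher against 3 counts in rat 5. The model at 185259226–185291894 had 10 counts in rat 1 and 1 in rat 2, a ratio of 11.7 (exact 95% interval 1.66 to 507), and lies inside the span of a minus-strand model at 185177711–185345814; counting used strand.

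**Figure D3:**
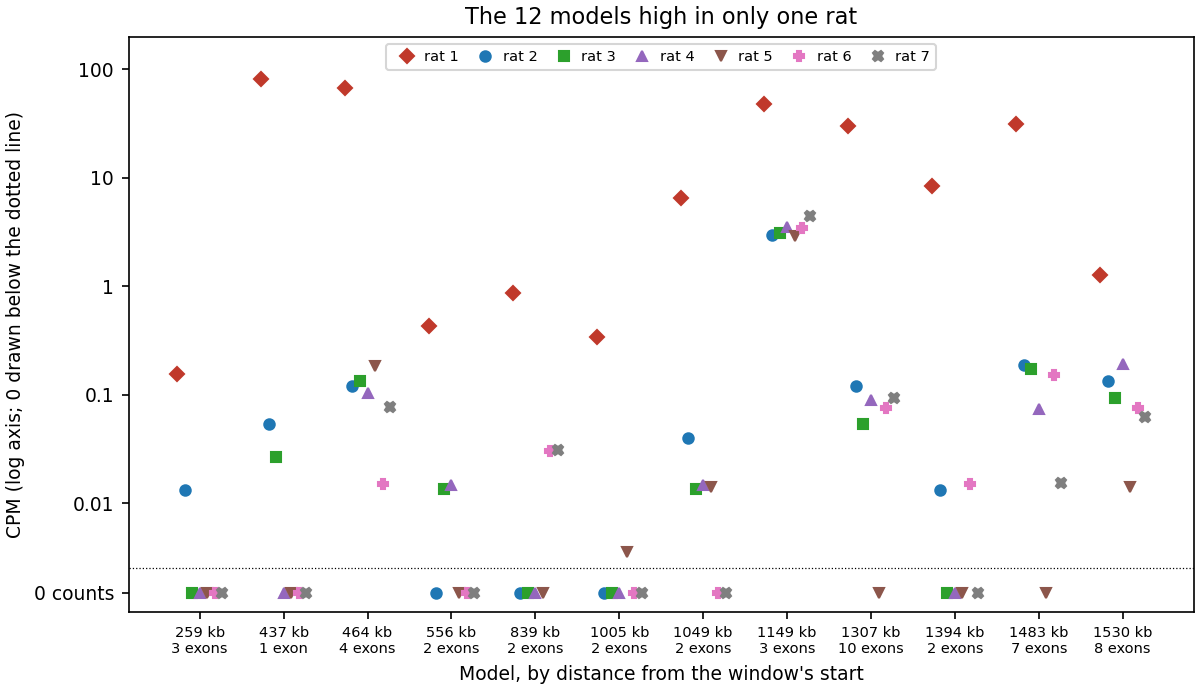
CPM in each rat for the 12 members high in only one rat, ordered by distance from the window's start, on a log axis; samples with 0 counts are drawn below the dotted line. Rat 1 (red diamonds) is above every other rat in each model, and at 1149 kb rats 2 to 7 stay together between 2.92 and 4.46 CPM.

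The lowest ratios inside the 3-fold limit were 6.55, 10.8 and 11.7, and the members just outside it were the 3 expressed in all rats, at 1.30, 1.12 and 1.00 times the next highest rat. By the count minimum, the member with 10 counts was the last inside, and the members outside with the most counts in rat 1 had 6 (185177711–185345814) and 5 (185312427–185312657). Among the 20 members with fewer than 10 counts in every rat, rat 1 was the highest for 11 (55%), against 15.4% of the 5862 models of the annotation in that class. Their counts summed to 32.6 in rat 1, with a range of 2.75 to 8.17 among rats 2 to 7, or 0.508 CPM against 0.0415 to 0.126 CPM, so that this sum too was highest in rat 1.

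Position and structure were not used to separate the classes. The 12 members extended over 1275 kb, from 185259226 to 186533876, in 8 runs of neighbours, the longest of 3 models. Of the 37 members that start within that stretch, 24 were under 10 counts in every rat (9 of them with none) and 1 was expressed in all rats. Members with a high level in rat 1 thus alternated with others of few or no counts. Both strands took part, with 5 models on the minus and 7 on the plus strand, and no minus-strand model of the class starts beyond 186049349. The pair of abundant members expressed in all rats lay to the right of all 12.

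By exon number, 1 of the 12 had 1 exon, 5 had 2 exons and 6 had 3 or more, with a median of 2.5 exons and 1202 exon bases. The 20 members with few counts had a median of 2 exons and 399 bases, and the 13 without counts 2 exons and 382 bases. Over all models, those high in only one rat had a median of 5 exons and 1270 bases. Models with few counts had 2 exons and 636 bases, and those without counts 1 exon and 214 bases. Lengths thus fell in the same order over the annotation, and the count minimum is not scaled to length. Models of 2 exons made up 37.5% of the window's members and 9.12% of the annotation, in which the median model had 4 exons and 1077 bases. Models without a count were 27.1% of the members and 20.8% of all models. Of the 12, 8 had whole counts in every rat, although fractions can also sum to a whole number. Of the other 4, the models at 185464227, 185556271 and 186307359 had a fractional count in rat 1 only, and the one at 186005183 in rats 1 and 5, so that multimapping reads enter these values and their exact levels are uncertain.

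Rat 1 also held most of the models in the whole annotation that were high in only one rat, 157 of 210. Rat 6 had 24, rat 5 had 19, rat 4 had 5, rats 2 and 7 had 2 each and rat 3 had 1, and none of these 53 lay in the chromosome 2 window. The 12 members were 7.64% of the 157 models and held 7.84% of their summed CPM in rat 1 (3534 CPM). None of the 10 most abundant of the 157 was a member, and 3 of the top 20 were: the models at 185436598, 185464227 and 186149368.

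Divided into windows of 2 Mb, the annotation had 1378 windows with a model, of which 90 held a model high in rat 1 and 62 of these held only 1. These windows were laid out from the start of the chromosome 2 window, so that clusters elsewhere may be cut by a border. On this grid the chromosome 2 window held the most, 12 of 48 models. Next came a window of chromosome 1 (93000000–94999999) with 9 of 71, one of chromosome 10 (89000000–90999999) with 7 of 85 and one of chromosome 7 (139000000–140999999) with 7 of 56. The adjoining chromosome 10 window (87000000–88999999) held 5 of 99. Over whole chromosomes, chromosome 10 had 25 models high in rat 1 and chromosome 2 had 23. As a share of their models, some windows that hold fewer models were nearer to the 25% of chromosome 2. These had 3 of 13 on chromosome 14 (23.1%), 3 of 14 on chromosome 13 (21.4%) and 4 of 25 on chromosome 18 (16%). Such shares rest on few models. Summed levels of the first 4 windows had another order. The chromosome 10 models at 89000000–90999999 reached 1126 CPM and the chromosome 7 models 727 CPM in rat 1. The chromosome 2 models had 277 CPM and the chromosome 1 models 60.1 CPM there. In rats 2 to 7 these chromosome 10 models stayed at a median of 93.1 CPM, so that rat 1 was 12.1 times the others there. It was 29.7 times the others in the chromosome 7 window, 68.8 times on chromosome 1 and 73.9 times on chromosome 2. In GRCr8, all 54 keratin genes with a Krt symbol, which encode the filaments of epithelial cells, lie on chromosomes 7 and 10 (27 each). Whether those windows hold them in RGSC3.4 was not checked. The difference between the windows was not tested, and the chromosome 2 window had been chosen with these results known.

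**Figure D4:**
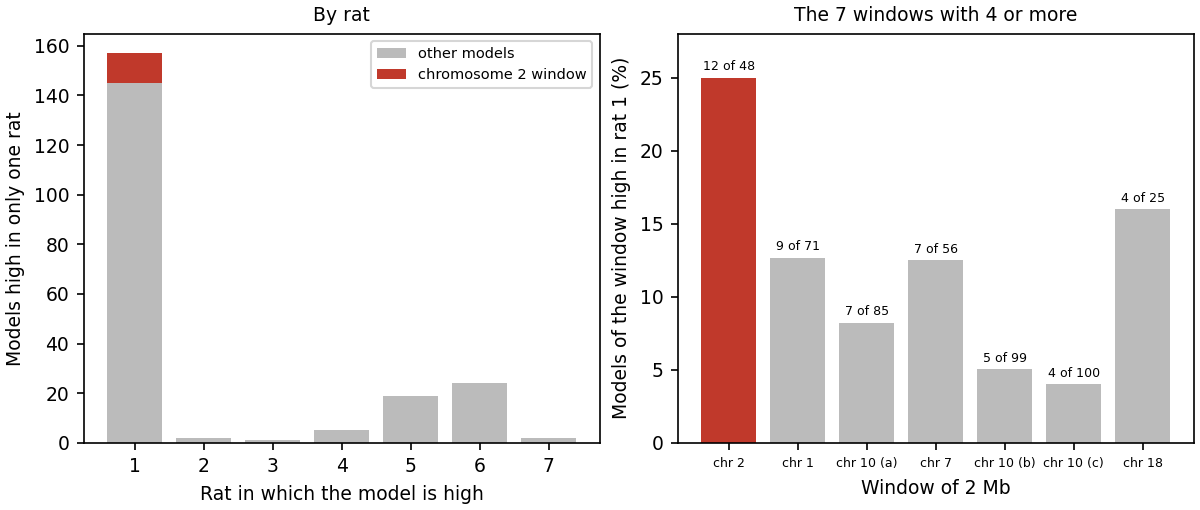
Left, number of models in the annotation high in only one rat, by the rat in which they were high, with members of the chromosome 2 window in red; rat 1 accounts for 157 of 210. Right, percentage of the models in a 2 Mb window that were high in rat 1, for the 7 windows with at least 4 such models (the 3 windows of chromosome 10 are labelled a to c), with the number of models above each bar; chromosome 2 stands at 25% and the chromosome 18 window at 16%.

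The stretches beside the window were sparse in models. From 183000000 to 184999999 there were 12 models, 2 of them high in rat 1, and from 187000001 to 189000000 there were 13, with none high in rat 1. Of these 25 neighbours, 1 was expressed in all rats.

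Without rat 1, 0 of the 48 members were high in only one rat, and 4 had at least 10 counts in each of the 6 remaining rats: the 3 named above and the model at 186149368–186151679. Over all models, 66 were then high in only one rat. Without any other single rat, all 12 stayed in the class. The rule sets this in advance, since leaving out another rat cannot raise the next highest level.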

How the data were processed

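RNA selected by its polyA tail was sequenced per rat as stranded single-end reads, per the labels' protocols. The aligner was STAR 2.7.1a and the counter featureCounts, in version 1.6.5 per the submitters' processing notes and 1.6.3 per the file headers. What the authors deposited are estimated counts: reads on the exons of each model, on the matching strand, with a multimapping read split into fractions, per the file headers. Models come from Ensembl 67 on RGSC3.4 with additions by the authors. A near-identical copy can thus give or take counts.

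CPM used each rat's summed counts, and RPKM also the exon length in the files. The count minimum was 10 and the fold 3. One CPM stands for 64.1 to 74.9 counts, and a count of 0 allows 3 counts (0.0400 to 0.0468 CPM). Ratios have exact 95% intervals from rounded counts. A chi-square per degree of freedom of 11.4 to 105.6 separated the 21 library pairs, so none was a duplicate. With one group, no test between groups was made. Scaling by edgeR 4.0.16 (TMM) and DESeq2 1.42.0 (size factors, R 4.3.3) on rounded counts, other thresholds, whole counts only and leaving out each rat were tried. Python 3.11.15 with numpy 2.4.6, scipy 1.17.1, pandas 2.3.3 and matplotlib 3.10.9 did the rest. The classification was run on simulated data in which only models above a set mean count were raised in a rat. Members with few counts are not covered by that simulation. Members named are all 3 expressed in all rats, those of the other class with the highest level or ratio, and those nearest the thresholds; in effect all 15, with identifiers for the top 2 of each class. The members, window and classes were chosen with earlier results of these data known. Lists of marker genes by symbol could not be used, since 0 of 29516 Ensembl identifiers matched the RefSeq table of 47357 genes.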

Additional observations from a re-analysis of the deposited data

Results flagged for a closer look

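For 24 values, Dixon's test at its 95% critical value asked whether one rat of the 7 lay far from the other 6, and 18 stood apart, each time through rat 1, which was the highest in 17 and the lowest in 1. Chance gives about 1 in 20 such values, but 12 of the 18 are the models chosen for being high in one rat, and 2 more are sums that follow from them. The CPM of these 12 in rat 1 was 81.3 (185436598), 67.9 (185464227), 48.4 (186149368), 31.4 (186483053), 30.2 (186307359), 8.41 (186393623), 6.54 (186049349), 1.26 (186530367), 0.858 (185839396), 0.429 (185556271), 0.339 (186005183) and 0.156 (185259226). Their sum was 277 CPM, and that of all 48 members was 384 CPM in rat 1 against at most 91.0 CPM in another rat.

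Of the remaining 4 values, 3 do not include these models. The abundant model at 186620360–186621911 had 58.6 CPM in rat 1 and 45.1 CPM in the next rat. The sum of the 3 members expressed in all rats was 106 CPM against 87.1 CPM, barely past the critical value, with the gap at 0.569 of the range. This sum includes the abundant model just named, so that it is not a separate value. The classes summed here were also set by the counts of the same rats. The 20 members with fewer than 10 counts summed to 0.508 CPM against 0.126 CPM. Rat 1's mean correlation with the other rats, taken across all models, was 0.993, against 0.996 in the next lowest; these means share their pairs of rats and are not independent. The total counts, the mitochondrial share, the level of named V1R models and the number of models with a count had no such rat. Neither did the remaining members expressed in all rats, at 186645648–186654321 (46.0 CPM in rat 1, 41.0 in rat 6) and 186206294–186219364 (highest in rat 7).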

How the results depend on the processing

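Of 75 alternative values, 63 moved by less than 1 SD, by at most 1.5 times for a count, or stayed within the 95% Wilson interval of rat 1's share, and 12 moved further. The 63 include values that could not fall. These are the number of members high in only one rat, and their sum in rat 1, when another rat was left out. The 12 members high in only one rat numbered 12 with 2 or 5 times the next rat, 3 times the median of the others, TMM, DESeq2 size factors or without the 10 most abundant models, and were 18 with a minimum of 3 counts, 9 with 30 and 8 with whole counts only. Over all models the 210 became 418 with a minimum of 3 counts, 399 with 2 times and 622 with 3 times the median, and fell to 172 with a minimum of 30 counts, 148 with whole counts only and 140 with 5 times. With each rat left out, members high in only one rat ranged from 0 (without rat 1) to 12, and all such models from 66 (without rat 1) to 239. Members expressed in all rats ranged from 3 to 4, their summed level from 81.9 to 84.3 CPM and their median CV from 12.9% to 19.6%, around 17.9%. Without rat 1 this level (82.2 CPM) and CV (12.9%) cover 4 models, and the same 3 models alone had 78.8 CPM. With whole counts only, 0 members were expressed in all rats, since all 3 share reads, so that their level and CV have no value there, and the sum of the other class in rat 1 was 178 CPM. That sum of 277 CPM became 293 with TMM, 295 with size factors and 533 without the 10 most abundant models, where the sum of members expressed in all rats became 152 CPM, by the smaller total. The median CV was 261% with no minimum, over members with any count. Without rat 1 no member was left for the sum in the highest rat. Depth limits the members with few counts, such as the one with 10 counts in rat 1. No paired analysis was possible because all rats belong to one group.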
